A study of Mus musculus with 2 samples.

Results

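The genes described here are 36 markers of the cells that form the filter and the vessels of the kidney, 11 of the podocyte, 20 of the endothelium and 5 of mural cells (the mesangium and the pericyte). They were taken from a table of 19829 genes by matching the gene symbol to a list of names. All 36 names matched a gene.

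Bulk RNA-seq had been made from whole mouse kidney, with 1 library of control mice (WT+AKI) and 1 library of *Inmt* transgenic mice (TG+AKI). How many animals each library holds is not given in the labels. Per the study's methods, the transgene drives *Inmt* in the proximal tubule and the WT mice were control littermates of C57BL/6 background. Both groups received voclosporin, a calcineurin inhibitor, at 30 mg/kg daily by intraperitoneal injection for 2 weeks between 8 and 10 weeks of age. Male mice of 14 weeks then underwent 30 min of bilateral renal ischemia followed by reperfusion (I/R), and RNA was taken from the left kidney. Harvest times of 24 h and 48 h after I/R are both given in the descriptions. Kidneys without ischemia, without voclosporin or with the transgene alone were not analysed here. The 2 libraries thus differ by label in genotype only, under drug and ischemia in both. With 1 library each, genotype cannot be told apart from differences between animals or library preparations. One sample label also calls the transgenic mice a conditional knockout. *Inmt* itself went from 10.4 (WT+AKI) to 402.8 (TG+AKI), 38.5-fold higher (95% interval 35.1 to 42.5), the direction of a transgene that adds expression.

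Values are read counts divided by a library scaling factor, as the authors deposited them. Behind them stood 38542764 reads of the WT+AKI library and 36427421 of the TG+AKI library. A value of 1 equalled 42.4 reads for WT+AKI and 33.1 for TG+AKI. With 1 library per group there was no replicate check and no p-value between the genotypes. Ratios (TG+AKI over WT+AKI) carry a 95% Clopper-Pearson interval from the reads. It covers counting error only, since reads are PCR products without molecular identifiers, and it leaves out the spread between animals. A gene was counted as higher or lower at a ratio of at least 2-fold. Among the 14997 genes that reached 1 in either library, 18.3% passed that mark, 7.35% higher and 11% lower in TG+AKI.

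Blood is filtered in the glomerulus across a fenestrated endothelium, a basement membrane and the foot processes of podocytes, which are joined by the slit diaphragm. Podocytes secrete VEGF-A, and the endothelium beside them carries its receptors. Mesangial cells hold the capillary loops from within, while pericytes lie on the peritubular capillaries that supply the tubules and are exposed to ischemia. Markers of these cells make up a small part of whole-kidney RNA. The 36 genes held 87550 reads of WT+AKI (0.227% of the library) and 60676 of TG+AKI (0.167%).

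All 36 genes passed the minimum value, and the lowest count behind any of them was 237 reads. Magi2 was at least 2-fold higher in TG+AKI, and Cd2ap, Ednrb and Nos3 were at least 2-fold lower. These 4 genes are 11.1% of the 36, below the 18.3% of all genes. The share of all genes depends on their level. With a minimum value of 10 it was 13.8%, and the same 4 genes were called among the 34 members left. The median log2 ratio of the 36 was -0.13, against -0.0175 for all genes. Ratios of 25 members (69.4%) lay within 1.5-fold, against 64.8% of all genes. The 95% interval excluded a ratio of 1 for 29 members (80.6%), 10 of them higher and 19 lower, and for 75% of all genes. The log2 ratio was below 0 for 63.9% of the 36 and for 51.3% of all genes.

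The cell types differed in their median log2 ratios. These were 0.13 for podocyte genes, -0.38 for endothelial genes and -0.55 for mural genes, against -0.0175 for all genes. With both libraries scaled to equal totals the podocyte median was -0.14 and that of all genes -0.298. Summed values moved from 790.8 to 744.9 for the podocyte genes, from 1101.3 to 960.3 for the endothelial genes and from 172.9 to 127.0 for the mural genes. In whole-kidney RNA, fewer cells of a type and less RNA per cell cannot be told apart. Nor can either be told apart from more RNA of other cells in the same sample. The sum of 10 proximal tubule markers went from 3283.8 to 13911.9.

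**Figure D1:**
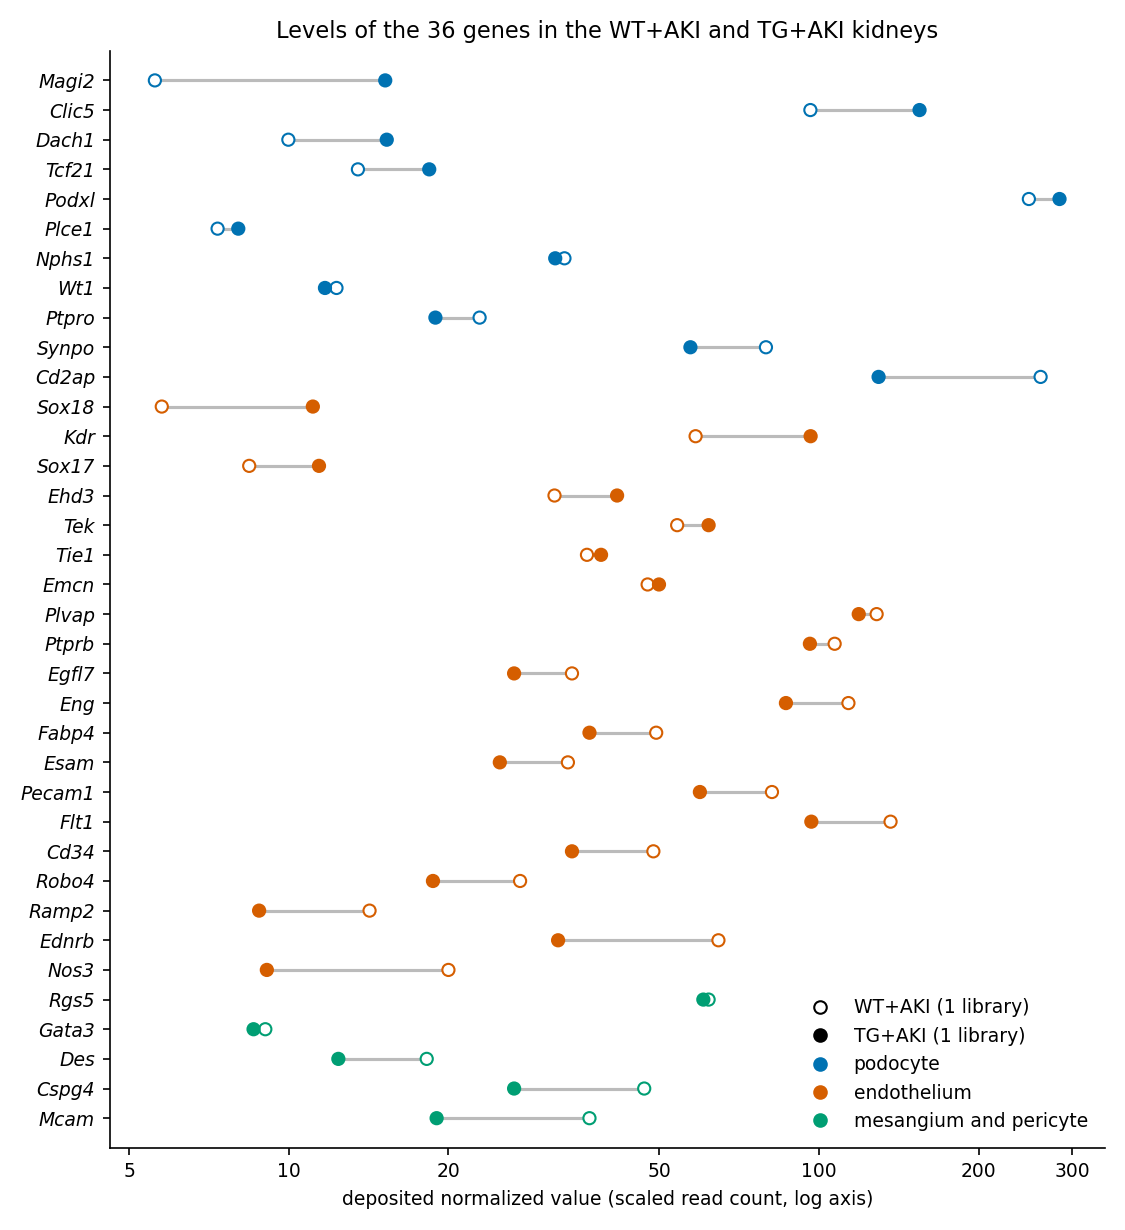
Deposited normalized value of each gene (log axis) in WT+AKI (open circles) and TG+AKI (filled circles), 1 library each, colored by cell type and ordered by ratio within it. The podocyte genes run from Magi2, higher in TG+AKI, to Cd2ap, lower, and the 5 mural genes all lie lower in TG+AKI, apart from Rgs5 when corrected for GC content and length.

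**Figure D2:**
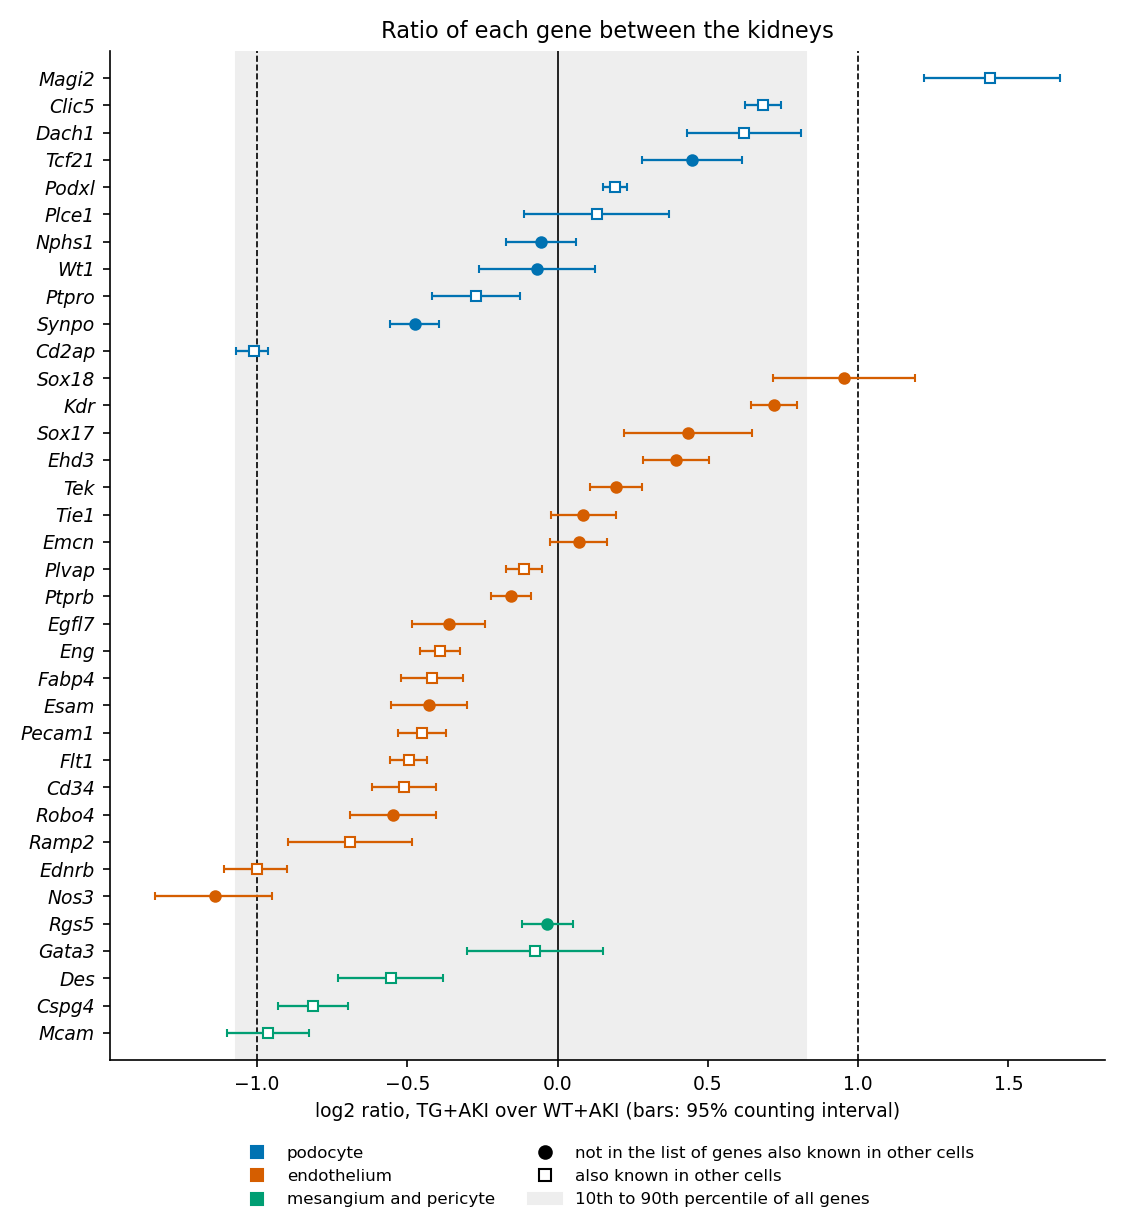
Log2 ratio of TG+AKI over WT+AKI with the 95% counting interval for each gene, dashed lines at 2-fold and a grey band from the 10th to the 90th percentile of all genes (-1.07 to 0.83). Open squares are genes also known in other cells, and 29 of the 36 intervals leave out 0.

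In the slit diaphragm of the podocyte the 3 members went different ways. *Nphs1* encodes nephrin, the protein that spans the slit, with values of 33.1 (WT+AKI, 1402 reads) and 31.8 (TG+AKI, 1053 reads). The ratio of 0.962 had an interval of 0.887 to 1.04, so no difference could be seen at this depth. Nphs1 shares 11.8% of its exon bases with other genes on the annotation, and its value is less certain for that reason. *Cd2ap*, an adaptor that ties nephrin to actin and is also made by many epithelia and immune cells, had values of 261.7 and 129.5. This was 2.02-fold lower in TG+AKI (interval 1.95 to 2.09), just past the 2-fold mark. *Magi2*, a scaffold protein of the slit that other epithelia also make, had values of 5.59 and 15.2 (237 and 503 reads). It was 2.72-fold higher (interval 2.32 to 3.18), at percentile 96.3 of all genes. Magi2 lies at chr5:19219387-20704792 and Cd2ap at chr17:42748887-42876707 (GRCm38.p6). The value of Magi2 as a share of Cd2ap went from 0.0214 to 0.117, a 5.49-fold difference (interval 4.68 to 6.46) that no library scaling can alter. Its size follows from the choice of the pair, which joins the highest and the lowest ratio of the podocyte members.

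Among surface and foot process proteins, *Podxl* and *Clic5* were higher and *Synpo* lower in TG+AKI. *Podxl* encodes podocalyxin, the charged coat protein of podocytes that vascular endothelium also carries, and went from 248.7 to 284.1. Its ratio of 1.14 (interval 1.11 to 1.17) is smaller than the effect of scaling both libraries to equal totals, under which it turned to a log2 ratio below 0. *Clic5* links podocalyxin to the cytoskeleton and is also found in glomerular endothelium. It had values of 96.3 and 154.7, a ratio of 1.61 (interval 1.54 to 1.67). *Synpo* encodes synaptopodin, an actin organizer of the foot process, and had values of 79.4 and 57.2. Its ratio was 0.72 (interval 0.68 to 0.761), opposite in direction to Clic5, and to Podxl except with both libraries scaled to equal totals.

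Of the signaling enzymes, *Ptpro*, the receptor phosphatase GLEPP1 of the podocyte surface that leukocytes also express, had values of 22.9 and 18.9 and a ratio of 0.828 (interval 0.748 to 0.917). *Plce1*, a phospholipase needed for glomerular development, had values of 7.34 and 8.03. Its interval of 0.926 to 1.29 held a ratio of 1.

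The transcription factors of the podocyte did not share a direction. *Wt1* keeps the podocyte program and had values of 12.3 and 11.7, with an interval of 0.835 to 1.09 that held 1. *Tcf21*, a factor of podocyte and stromal development, went from 13.5 to 18.4 and was 1.36-fold higher (interval 1.21 to 1.53). *Dach1*, known as well in arterial endothelium and the distal tubule, went from 9.98 to 15.3. It was 1.54-fold higher (interval 1.35 to 1.75). Nephrin and Wt1, each with an interval around 1, thus stood beside Dach1 and Tcf21, whose intervals lay above 1.

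The letters upstream of *Magi2*, the podocyte gene with the highest ratio, and of *Dach1*, the transcription factor with the highest, are shown for comparison. The window runs from 150 to 21 bases before the outermost start listed in the RefSeq promoter table (GRCm38.p6), on the strand of the gene. For Magi2 it lies inside the span given above, since the gene record begins farther upstream. Dach1 (chr14:98169786-98169915, minus strand) holds GATAA, the core of a GATA site, in capitals. Magi2 (chr5:19226896-19227025, plus strand) holds none of the 3 patterns reported here.
Dach1: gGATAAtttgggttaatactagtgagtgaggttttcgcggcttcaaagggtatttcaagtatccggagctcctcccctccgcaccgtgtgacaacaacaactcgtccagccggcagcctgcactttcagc
Magi2: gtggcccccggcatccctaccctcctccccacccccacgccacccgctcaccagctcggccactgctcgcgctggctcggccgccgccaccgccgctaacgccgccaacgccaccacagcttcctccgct
GATAA, read on both strands, was found in 12.3% of 27025 mouse promoters of this length. Among the 24 members with a sequence it stood in 4, all of them podocyte genes (Dach1, Nphs1, Ptpro and Tcf21, of 8). These 4 genes had ratios on both sides of 1. A match is a run of letters and does not show that a factor binds.

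Outside the members, 31 of 34 further podocyte genes had a value of at least 1, and 2 were at least 2-fold higher and 3 lower in TG+AKI, with a median log2 ratio of 0.08. The most abundant was *Actn4*, an actin crosslinker made by many cells, at 409.2 and 432.6. The basement membrane collagens *Col4a3* (204.7 and 382.2) and *Col4a4* (171.1 and 312.9), which some tubules also make, were 1.87-fold and 1.83-fold higher. *Arhgap24*, a Rac regulator, was 2.3-fold higher and *Itga3*, the integrin that anchors podocytes to the membrane, 3.61-fold lower (155.2 and 42.9).

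The VEGF receptors moved apart. *Kdr* encodes VEGFR2, the receptor that signals endothelial growth, with values of 58.5 (WT+AKI) and 96.4 (TG+AKI), from 2482 and 3192 reads. It was 1.65-fold higher (interval 1.56 to 1.74). *Flt1* encodes VEGFR1, which binds VEGF-A with high affinity but signals weakly and also exists as a soluble trap. Its values were 136.4 and 96.7, a ratio of 0.709 (interval 0.679 to 0.74). *Flt1* therefore stood well above Kdr in WT+AKI, and both had nearly the same value in TG+AKI. Kdr as a share of Flt1 went from 0.429 to 0.997, a 2.32-fold difference (interval 2.17 to 2.49). Their ligand gene *Vegfa* was 128.6 and 286.0, or 2.22-fold higher (interval 2.15 to 2.3), and the coreceptor *Nrp1* was 175.3 and 114.6.

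In the angiopoietin receptor system the differences were small. *Tek*, the Tie2 receptor, went from 54 to 61.9, a ratio of 1.14 (interval 1.08 to 1.22) that turned below 1 with equal totals. *Tie1*, its partner receptor, had values of 36.5 and 38.8, with an interval of 0.985 to 1.14. *Ptprb*, the phosphatase VE-PTP that restrains Tie2, had values of 107.0 and 96.1 and a ratio of 0.899 (interval 0.858 to 0.94). Tek as a share of Tie1 was 1.48 and 1.6, and the interval of that difference, 0.98 to 1.19, held 1.

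The 7 surface, junction and fenestra genes were mostly lower in TG+AKI. Of their log2 ratios 6 of 7 were below 0, against 51.3% of all genes, with a median of -0.43. *Pecam1*, the junction protein CD31, had values of 81.5 and 59.6 and a ratio of 0.731 (interval 0.691 to 0.773). *Cd34*, a sialomucin that fibroblasts also carry, had values of 48.7 and 34.2 and a ratio of 0.702. *Robo4*, a guidance receptor that stabilizes vessels, had values of 27.3 and 18.7 and a ratio of 0.684 (interval 0.62 to 0.755). *Esam*, an adhesion molecule of tight junctions, was 33.6 and 25, a ratio of 0.743. *Eng*, or endoglin, a TGF-beta coreceptor that stromal cells and macrophages can also express, was 113.6 and 86.6, a ratio of 0.762. These 5 ratios lay between 0.684 and 0.762, a narrow band. *Plvap*, which forms the diaphragms of fenestrae in peritubular capillaries, was nearer to 1 at 128.4 and 118.8 (ratio 0.925, interval 0.888 to 0.964). *Emcn*, the sialomucin endomucin, had values of 47.5 and 49.9 and an interval of 0.983 to 1.12 around 1.

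Both transcription factors among the endothelial members were higher in TG+AKI. *Sox17*, a factor of arterial identity, had values of 8.42 and 11.4 (357 and 377 reads) and a ratio of 1.35 (interval 1.17 to 1.57). *Sox18*, a factor of vascular and lymphatic development, had values of 5.76 and 11.1 (244 and 369 reads). Its ratio of 1.94 (interval 1.64 to 2.29) fell just short of the 2-fold mark. Other endothelial factors outside the members, named after their values were seen, went both ways. *Ets1* (81.4 and 47.3), *Fli1* (10.6 and 7.76) and *Erg* (11.9 and 9.45) had ratios of 0.581, 0.73 and 0.795. *Sox7* (3.89 and 3.23) and *Tal1* (2.71 and 3.35) had intervals that held 1, while *Meis2* (20.4 and 23.3) and *Hey1* (0.401 and 1.6) had ratios of 1.15 and 3.99. Sox17 shares 16.8% of its exon bases with a predicted gene, and its value is less certain for that reason.

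The 3 vasoactive signaling genes were all lower in TG+AKI, with a summed ratio of 0.507 and a median log2 ratio of -1. *Nos3* encodes the endothelial nitric oxide synthase, which relaxes vessels. It had values of 20 and 9.09 (850 and 301 reads) and was 2.21-fold lower (interval 1.93 to 2.52). *Nos3* lies at chr5:24364816-24384474, and 32.3% of its exon bases are shared with Atg9b and a predicted gene on the annotation. Whether reads were assigned by strand was not stated, so the value of Nos3 is uncertain. *Ednrb*, the endothelin B receptor that clears endothelin and is found in collecting duct and stromal cells too, had values of 64.6 and 32.2. It was 2-fold lower (interval 1.87 to 2.15), and its interval reaches to both sides of the mark. *Ramp2* forms the adrenomedullin receptor together with Calcrl, and had values of 14.2 and 8.79 and a ratio of 0.62 (interval 0.537 to 0.714). It shares 33.4% of its exon bases with Vps25, itself at 90.9 and 71.1, so this ratio is uncertain as well.

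Partner genes of these receptors were lower as well. *Ednra*, the endothelin A receptor of smooth muscle, was 6.39 and 3.23, and Ednrb as a share of Ednra was 10.1 and 9.98 (ratio 0.988, interval 0.778 to 1.26). *Adm*, which encodes adrenomedullin, the ligand of the Ramp2 receptor, was 22.9 and 4.53, or 5.05-fold lower. Nos3 as a share of Pecam1, which is also known in other cells, went from 0.246 to 0.152, a ratio of 0.62 (interval 0.536 to 0.716). The uncertainty of the Nos3 value applies to this share too, and what lies behind it was not tested. Nos3 as a share of *Thbd*, the endothelial thrombin receptor thrombomodulin (75.5 and 34.9), was 0.266 and 0.261. Sox18 as a share of Nos3 went from 0.287 to 1.23, the 4.27-fold difference (interval 3.45 to 5.29) of genes at opposite ends of the endothelial order. All pairs given as a share, here and for the other cell types, were picked after the values were seen, from 14 that were computed.

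Of the other endothelial genes, *Egfl7*, a secreted factor of the vessel matrix, was 34.2 and 26.6, a ratio of 0.778 (interval 0.715 to 0.847). It shares 11.2% of its exon bases with Agpat2 and other genes on the annotation, so its value is less certain. *Ehd3*, a membrane trafficking protein known in glomerular endothelium, was higher, at 31.7 and 41.6, a ratio of 1.31 (interval 1.22 to 1.42). *Fabp4*, a lipid carrier of capillaries, fat cells and macrophages, was 49.3 and 36.9, a ratio of 0.748 (interval 0.696 to 0.803). Ehd3 as a share of Pecam1 went from 0.388 to 0.698, a 1.8-fold difference (interval 1.63 to 1.97). It sets Ehd3 against Pecam1 alone, which is also known in other cells. The gap to other endothelial members differs, since Robo4 had a ratio of 0.684 and Tie1 of 1.06.

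Upstream sequences of *Kdr*, *Flt1* and *Ednrb* are shown as the receptors on which the endothelial comparison turns. Each covers the same window in GRCm38.p6 and reads in the direction of the gene. All 3 gene records also extend farther upstream than the start used. They lie at chr5:75978476-75978605, chr5:147726032-147726161 and chr14:103843722-103843851, all on the minus strand. Capitals mark CNGGAA, which contains GGAA, the core of sites for ETS factors, and GGGCGG, the GC box of Sp1, each on either strand. ETS factors include regulators of endothelial genes. GGAA outside the longer pattern, as in Flt1, is not in capitals and was not counted.
Kdr: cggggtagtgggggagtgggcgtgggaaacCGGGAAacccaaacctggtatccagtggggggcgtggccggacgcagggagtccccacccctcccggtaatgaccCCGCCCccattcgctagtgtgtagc
Flt1: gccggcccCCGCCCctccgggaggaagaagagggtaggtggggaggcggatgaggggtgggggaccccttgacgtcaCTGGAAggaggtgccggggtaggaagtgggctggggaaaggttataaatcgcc
Ednrb: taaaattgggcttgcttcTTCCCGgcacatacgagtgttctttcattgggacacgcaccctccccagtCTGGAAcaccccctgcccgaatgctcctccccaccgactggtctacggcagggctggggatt
Kdr and Flt1 each hold 1 match to CNGGAA and 1 to GGGCGG, while Ednrb holds 2 matches to CNGGAA alone. The first pattern was found in 33.8% of all promoters of this length, in 81.8% of the 11 endothelial members with a sequence (9 genes) and in 3 of 8 podocyte members. The GC box was found in 25.3% of all promoters and in 6 of the 24 members with one. Kdr and Flt1, which carry the same 2 patterns, had ratios on opposite sides of 1. The 3 patterns were picked from 14 after their counts were seen, and no match to 1 shares a base with a match to another in these sequences.

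Mural genes were the only group of the 3 with all log2 ratios below 0. The group holds only 5 genes, and 51.3% of all genes were below 0. No mural member reached 2-fold, and Rgs5 turned above 0 with a correction for GC content and length. *Mcam*, the adhesion molecule CD146 of pericytes, smooth muscle and endothelium, had values of 36.9 and 19 (1566 and 628 reads). Its ratio of 0.513 (interval 0.467 to 0.564) fell just short of the 2-fold mark. *Cspg4*, the pericyte proteoglycan NG2, had values of 46.8 and 26.6 and a ratio of 0.569 (interval 0.525 to 0.616). *Des*, the intermediate filament desmin of mural and muscle cells, had values of 18.2 and 12.4 and a ratio of 0.681 (interval 0.602 to 0.768). By contrast, *Rgs5*, a G protein regulator of pericytes, had values of 61.9 and 60.5 with an interval of 0.921 to 1.04. *Gata3*, a factor of mesangial cells that the collecting duct also makes, had values of 9.03 and 8.58 with an interval of 0.811 to 1.11. Mcam as a share of Rgs5 went from 0.597 to 0.314, a ratio of 0.526 (interval 0.47 to 0.587), for the lowest and the highest of the mural members. Nephrin as a share of Rgs5 was 0.534 and 0.526, with an interval of the difference of 0.89 to 1.09.

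**Figure D3:**
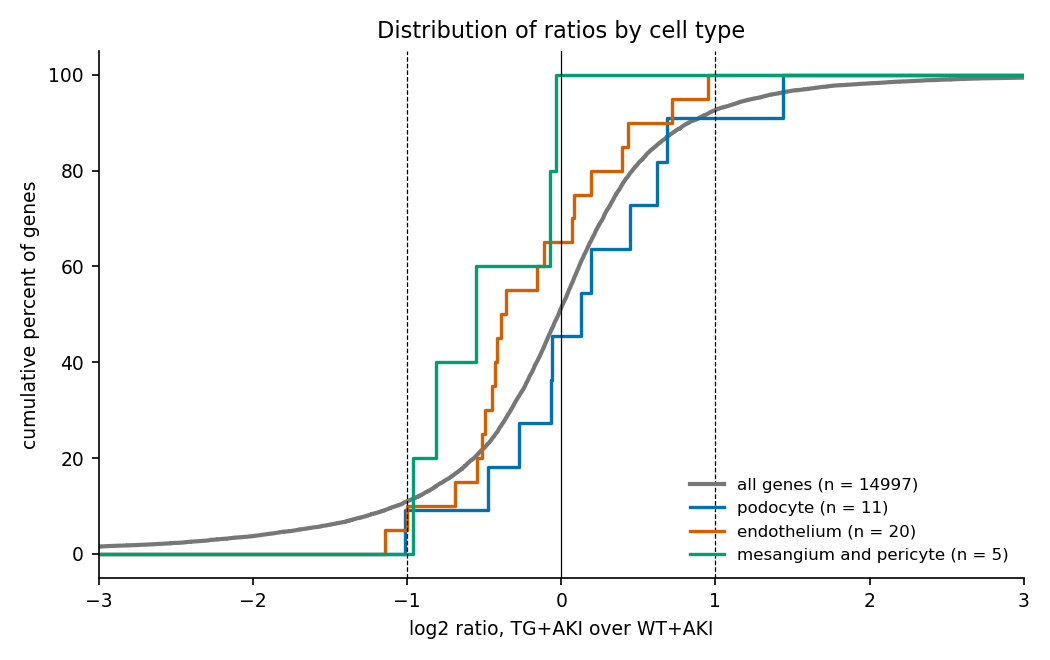
Cumulative percent of genes against the log2 ratio of TG+AKI over WT+AKI, for all 14997 genes (grey) and for the podocyte, endothelial and mural genes, shown between -3 and 3 with dashed lines at 2-fold. The podocyte line runs to the right of all genes over most of its length, and the mural line reaches 100% below a log2 ratio of 0.

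Many of these markers are made by other cells of the kidney too. Of the 20 endothelial genes, 8 are also known in other cells (Cd34, Fabp4, Ednrb, Ramp2, Plvap, Eng, Pecam1 and Flt1). All 8 were lower in TG+AKI, as were 51.3% of all genes, and the 8 had a median log2 ratio of -0.47. The other 12 had a median of 0.0778, with 7 above 0 and 5 below. Among mural genes the 4 also known in other cells had a median of -0.68, and Rgs5 was the only other. For the podocyte the order was the other way, with 0.19 for the 7 genes also known elsewhere and -0.062 for Nphs1, Synpo, Wt1 and Tcf21. Podocyte genes thus lay below endothelial genes once those known elsewhere were left out. Tcf21, known from developing stroma as well, was kept with the podocyte genes, and it alone of the 4 had a log2 ratio above 0. Which genes counted as known elsewhere came from a list made with the results known.

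Markers of those other cells differed between the libraries at the same time. All 8 fibroblast markers were lower in TG+AKI, 6 of them at least 2-fold, and their sum went from 514.9 to 210.2. The leading genes were *Dcn* (120.4 and 55.2) and *Col1a2* (120.3 and 50.6). Of 14 macrophage and leukocyte markers 13 were listed and 10 passed the minimum value. Of these, 8 were at least 2-fold lower, and the summed value of the list went from 210.2 to 90. Of the leading 2, *Csf1r* was 37.5 and 43, and *Cd68* was 37.1 and 1.39. All 10 proximal tubule markers were at least 2-fold higher in TG+AKI, among them *Slc34a1* (764.5 and 5396.7) and *Lrp2* (644.3 and 2753.7). Of 8 thick limb and distal tubule markers 4 were at least 2-fold higher, as were 2 of 10 of the collecting duct, and 1 and 2 of them had ratios below 1. Sums went from 2088.9 to 3800.6 for the thick limb and distal tubule (with *Umod* at 1427.1 and 1921.1 and *Slc12a1* at 395.3 and 1048.5). They went from 439.3 to 621.1 for the collecting duct (*Aqp2* at 153.5 and 178.3, *Aqp3* at 58.2 and 99.2). The part of these cells in the ratios of the 36 genes was not tested. The 10 tubular injury markers were all at least 2-fold lower, with *Spp1* at 10182.6 and 670.5 and *Havcr1* at 1168.8 and 2.78.

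Markers of muscle, urothelium, blood and adrenal cortex had low summed values in both libraries, while the fat list did not. Skeletal muscle markers (2 of 10 listed, none passing the minimum value) summed to 1.08 and 1.21, with *Mylpf* at 0.826 and 0.634 and *Actn3* at 0.259 and 0.574. Of 12 fat cell markers 6 were listed, and their sum was 325.9 and 742.7, with *Lpl* at 146.9 and 448.4 and *Scd1* at 146.4 and 257.2. Lpl and *Car3* (2.12 and 32.1) were at least 2-fold higher, while *Plin4* (23.5 and 3.38) and *Cidec* (5.66 and 0.181) were at least 2-fold lower. Plin4, Cidec and Car3 were named after their values were seen. The defining fat genes Adipoq and Plin1 had no row, and Fabp4 was lower in TG+AKI. Lymphatic endothelium markers summed to 35.1 and 31.9, with *Flt4* at 19.6 and 13.7 and *Prox1* at 4.34 and 7.49. Sums were 7.05 and 2.99 for urothelium (*Krt5* 2.59 and 0.332, *Psca* 1.91 and 0.393) and 7.55 and 10.1 for red cells and platelets (*Itga2b* 4.15 and 4.47, *Hbb-bs* 1.08 and 1.99). Of 6 adrenal cortex genes *Star* alone was listed, at 2.15 and 1.45. None of 14 housekeeping genes reached 2-fold, with a median log2 ratio of -0.16 (*Eef2* at 1262.7 and 1526.8).

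Genes that endothelium and neighboring cells turn on under inflammation had a median far below that of the endothelial markers. Of 15 such activation genes 13 were listed and 10 passed the minimum value. Of these, 7 were at least 2-fold lower and none higher, with a median log2 ratio of -2.33. The other 3 had log2 ratios above 0. *Icam1*, the leukocyte adhesion receptor, had values of 90.4 and 16, or 5.66-fold lower. *Cx3cl1*, the membrane-bound chemokine fractalkine, had values of 154.3 and 72.9. *Apln*, a peptide of sprouting endothelium, was 4.17 and 6.76, a ratio of 1.62 (interval 1.32 to 1.98). *Esm1* (14.7 and 23.2) had a ratio of 1.58 (interval 1.42 to 1.75). For *Angpt2* (6.96 and 8.52) it was 1.22 (interval 1.04 to 1.45). Esm1 and Angpt2 were named after their values were seen. Injured tubules also make several of the activation genes, and the tubular injury markers given above were lower in the same library. Vcam1 stands in both lists, and the part of the tubules in the activation genes was not tested.

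Among 44 further endothelial genes 3 were at least 2-fold higher and 4 lower, with a median log2 ratio of -0.24 near that of the 20 members. *Plat*, tissue plasminogen activator, had values of 329.5 and 62.6 and was 5.27-fold lower. *Igfbp3*, a binding protein for insulin-like growth factors, was 275.1 and 432.4, and *Adgrf5*, an adhesion receptor of capillaries, was 136.2 and 124.5. *Aplnr*, the receptor of apelin, had the highest ratio of the list, 4.83 (interval 3.3 to 7.22), from only 35 and 132 reads. Of 17 listed vascular ligands and coreceptors, Vegfa was the only one at least 2-fold higher, and 5 were lower. They include *Tgfbr2*, the type II TGF-beta receptor, at 163.3 and 68.4.

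Of 27 further mural and mesangial genes 26 were listed and 21 passed the minimum value. Their median log2 ratio was -0.0202, above that of the 5 members, with 3 at least 2-fold higher and 5 lower. *Mgp*, an inhibitor of calcification, had values of 286.0 and 44.5 and was 6.42-fold lower. The contractile gene *Mylk* was 126.4 and 152.9, and *Nt5e*, the surface enzyme CD73, was 131.5 and 147.5. *Lmod1*, a smooth muscle actin regulator, went from 2.03 to 4.68, a ratio of 2.31 (interval 1.76 to 3.04). The wider list thus held genes on both sides of 1, unlike the 5 members.

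**Figure D4:**
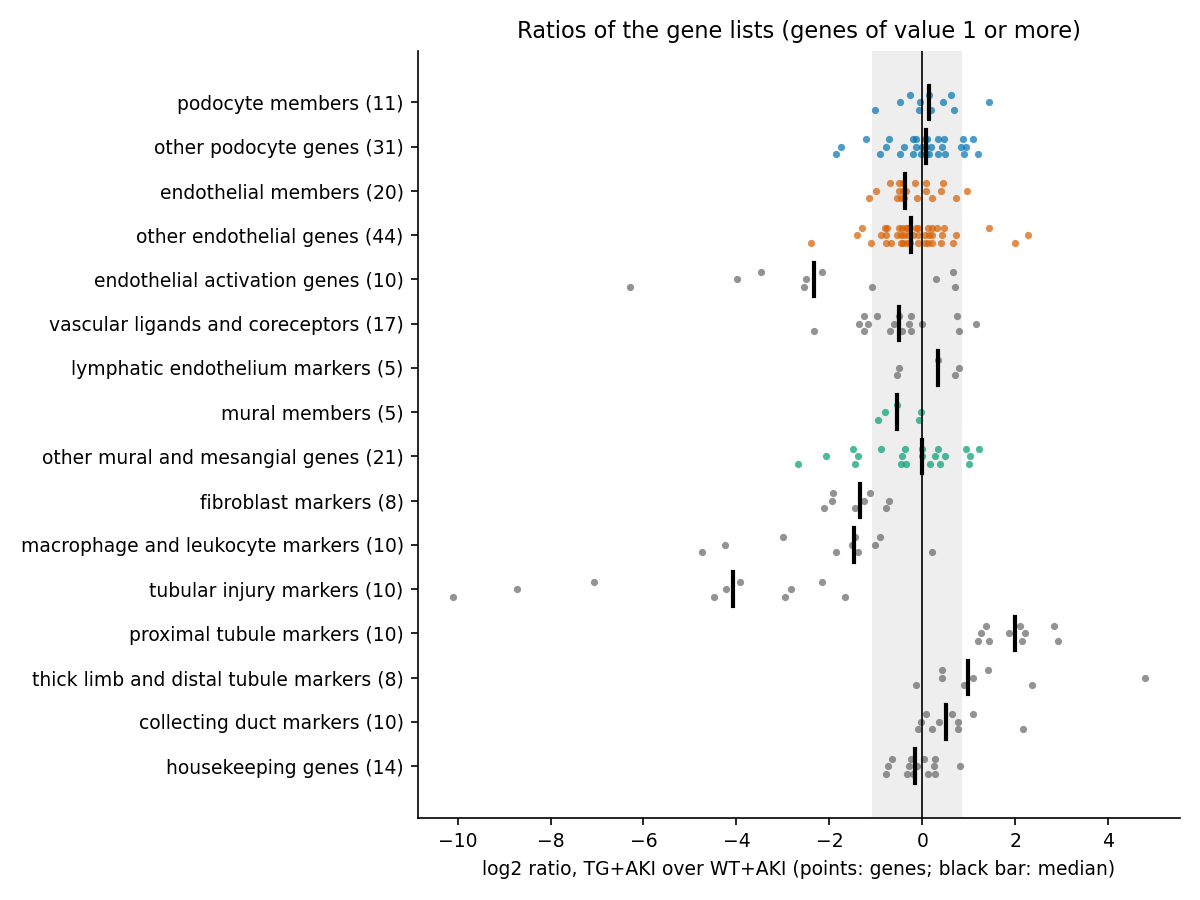
Log2 ratio of TG+AKI over WT+AKI for genes of each list with a value of at least 1 (points), with the list's median (black bar), the number of genes in brackets and a grey band from the 10th to the 90th percentile of all genes. Medians of the podocyte, endothelial and mural lists lie within the band, while those of the activation, fibroblast, leukocyte and injury lists lie below it and those of the proximal tubule and the thick limb and distal tubule above it.

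To compare genes with each other, values were divided by the length of the longest coding transcript. Plvap was the highest of the 36 per kb in both libraries, at 64.6 and 59.8. Fabp4 (55 and 41.1), Cd2ap (48.8 and 24.1), Podxl (46.2 and 52.8) and Eng (33.2 and 25.3) followed in WT+AKI. In TG+AKI the order was Plvap, Podxl, Fabp4, Clic5 and Eng, with Clic5 at 26.4 against 16.4 per kb in WT+AKI. *Kdr* went from 9.88 to 16.3 per kb and from rank 19 to rank 10 of the 36. *Mcam* went from 12.4 to 6.34 per kb and from rank 16 to rank 25. *Nos3* went from 4.85 to 2.2 per kb, rank 28 to rank 35. Plce1 was the lowest in both, at 0.777 and 0.851 per kb. Every order here rests on 1 library.

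The direction of the smaller ratios depended on the scaling of the libraries. Scaling both libraries to equal totals lowered every log2 ratio by a constant, since it shifts each by -0.275. Under it Podxl, Plce1, Tek, Tie1 and Emcn changed sign, and 28 of the 36 log2 ratios were below 0. Mcam and Cspg4 joined the genes at least 2-fold lower. The median of all genes was then -0.298, and 2372 of 14866 genes were at least 2-fold lower. Of all 2-fold calls 22.6% were then higher in TG+AKI, against 40.1% with the deposited scaling. The order of the medians, podocyte above endothelial above mural, is untouched by any such constant, but it did not hold without the members known in other cells or in the wider lists, where mural (-0.0202) lay above endothelial (-0.24). With DESeq2 size factors, named in the study's methods, the shift was 0.016 and Nos3 alone remained at least 2-fold lower. Over all alternatives 29 of the 36 genes kept their sign, among them Magi2, Cd2ap, Kdr, Flt1, Sox18, Nos3, Ednrb, Mcam and Cspg4.

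**Figure D5:**
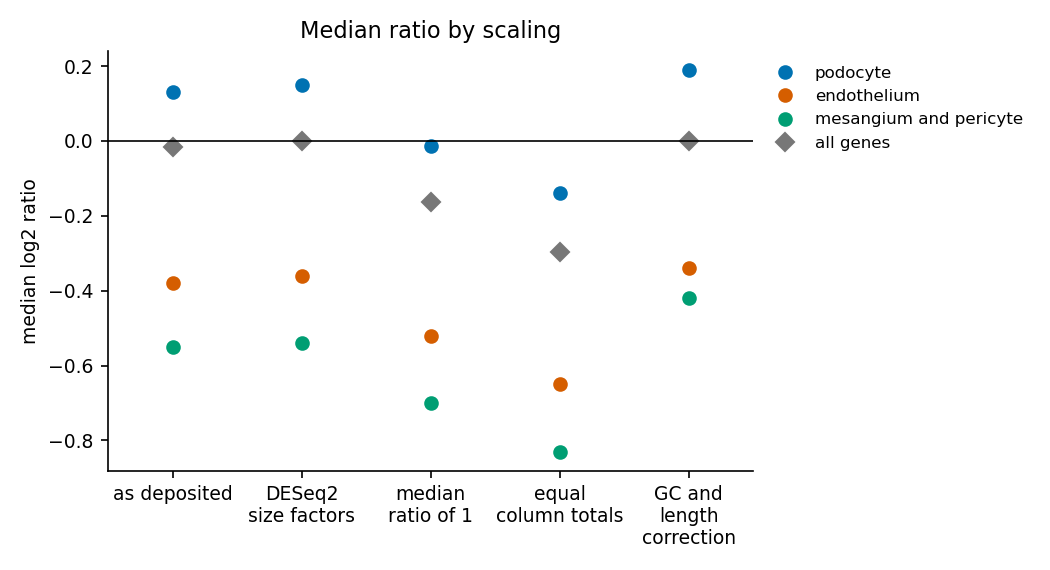
Median log2 ratio of TG+AKI over WT+AKI for the podocyte, endothelial and mural genes (circles) and for all genes (diamonds) under the deposited scaling, 3 other scalings and a correction for GC content and length. Mural lies below endothelial and endothelial below podocyte under each. With equal totals the podocyte median changes from 0.13 to -0.14 and that of all genes from -0.0175 to -0.298.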

How the data were processed

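Whole-kidney poly(A) RNA of 2 libraries (TruSeq Stranded mRNA) was compared, 1 per group, grouped by the library names. The authors aligned reads with STAR 2.7.3a, counted them per gene with HTSeq and normalized them with DESeq2, per the study's methods. The submitters' processing notes also name edgeR, Cufflinks 2.2.1, FastQC and mm10. Strand handling in counting is not given in the sources used here. The authors deposited 1 normalized signal value per gene and library. Every value (100%) was a whole multiple of its column's smallest value within 0.001, so reads were recovered, and TMM factors of edgeR 4.0.16 matched the deposited scaling.

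Since there was 1 library per group, the planned descriptive comparison was used, with the plain ratio, a minimum value of 1 in either library, a 2-fold mark and Clopper-Pearson intervals (95%). A two-sided exact binomial test of the reads, which compares the libraries and not the genotypes, gave a Benjamini-Hochberg adjusted p under 0.05 for 11047 genes and 29 of the 36. Procedures were tested on simulated data. Lengths and exon overlaps came from GENCODE M21, gene positions and promoters (24 of 36 matched) from RefSeq GRCm38.p6, the same build as mm10. Genes absent from the table were not used here, and no listed gene had 0 reads in either library.

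All 36 genes were named, with the 3 most abundant and the highest and lowest ratio of each related list, and the 2 most abundant of each list of other cells. Some genes selected this way are not reported here. The members and lists were chosen with earlier results of these data known. Software was Python 3.11.15, scipy 1.17.1 and R 4.3.3 with DESeq2 1.42.0. Alternatives were pseudocounts of 1 and 0.1, other scalings, no filter, a minimum of 10, a GC and length correction, the binomial test and leaving out members known in other cells.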

Additional observations from a re-analysis of the deposited data

How the results depend on the processing

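No paired analysis was possible because each group had 1 library, and for the same reason no replicate could be left out. With equal column totals the medians of the log2 ratio were -0.14 (podocyte), -0.65 (endothelial), -0.83 (mural) and -0.41 (all 36). The median of all genes was then -0.298. Under that scaling 694 of 14866 genes were at least 2-fold higher and 2372 lower. Of the 36, 1 was higher and 5 lower. With the median ratio of genes of at least 100 set to 1, the medians were -0.52 (endothelial), -0.28 (all 36) and -0.164 (all genes). With DESeq2 size factors 1 of the 36 was at least 2-fold lower, as were 1610 of 15024 genes. Without a filter 1821 genes were higher and 2489 lower of 19829. With a minimum of 10, 629 were higher and 790 lower of 10294, and the median of the members left was -0.21. The GC and length correction placed 2 of the 36 (Magi2 and Sox18) at least 2-fold higher. Without members known in other cells the median was 0.078 for endothelial genes, -0.062 for podocyte genes (the reverse order) and -0.034 for all cell types, and 1 mural gene was left, so no mural median was given. A pseudocount of 1 or 0.1 took Ednrb out of the 2-fold calls. Nphs1 and Rgs5 changed sign with the GC and length correction. Depth did not limit the members, each with at least 237 reads, but the number of animals did, since nothing here measures their spread.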
